A study of Homo sapiens with 3 samples.

Results

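The 10 genes IFI6, IFI27, BST2, IFITM1, IFITM2, IFITM3, ISG15, ISG20, IFI44 and IFI44L are genes switched on by interferon whose products are mostly small proteins, and were taken by symbol from the 19912 genes measured. They were followed in 3 single-cell RNA libraries made from HCT116, a colorectal carcinoma line of human origin, which carried a histone H2B-GFP label in all groups and grew in an organ-on-chip. The groups were the stretched bottom channel, which holds the cells that had invaded after 6 days of peristalsis-like stretch, the stretched top channel, which holds the cells that had not invaded, and the top channel of chips without stretch. All cells were sorted for GFP, and each group was 1 library, so no difference has a replicate check, no test between groups was possible, and every interval below covers counting error only. The labels do not give the number of chips behind a library, and they name 1 cell line.

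Interferons of type I and type III bind different receptors but use the same kinases, JAK1 and TYK2, which activate factors of the STAT family. These join IRF9 and bind an element called ISRE in the promoters of interferon-stimulated genes, while type II interferon acts mainly through an element called GAS. The products have separate tasks: ISG15 is a ubiquitin-like protein that is attached to other proteins, the IFITM proteins sit in membranes and hinder the fusion of viruses, BST2 (tetherin) holds budding virus at the cell surface, IFI6 and IFI27 are small hydrophobic proteins of internal membranes, and ISG20 is an exonuclease. IFI44 and IFI44L are related cytoplasmic proteins. ISG20, IFI44 and IFI44L are therefore neither membrane proteins nor modifiers, and the group is called the 10 interferon-induced genes here.

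The ISRE cores in front of these genes are shown first, because the genes are known to share this element and because they were low together in the stretched bottom library. The letters searched were GAAA, any 2 bases and GAAA again, on either strand (TTTC, any 2 bases and TTTC when read the other way), in RefSeq promoters of build GRCh38.p14, each 300 bases long. All 9 of the genes with a promoter in that table held at least 1 match, against 3.57% of 35116 promoters. IFITM2 had no entry. Each line gives the match nearest to the annotated start that lies wholly before it, with up to 15 bases on either side and no base past the start, read 5′ to 3′ along the gene. Capitals mark every base of a match, and a run of capitals at a window's edge belongs to a match that begins outside it. Where the table lists several starts of a gene, 1 start was used. Matches overlapped each other in BST2 and ISG15, and the match shown began between 124 bases (BST2) and 18 bases (IFI44) before the start.
IFI6 (chr1:27672261-27672300, - strand): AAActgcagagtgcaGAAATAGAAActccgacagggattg
IFI27 (chr14:94110626-94110665, + strand): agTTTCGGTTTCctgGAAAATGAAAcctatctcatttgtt
BST2 (chr19:17405730-17405769, - strand): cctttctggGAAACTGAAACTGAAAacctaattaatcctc
IFITM1 (chr11:313985-314024, + strand): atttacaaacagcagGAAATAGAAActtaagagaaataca
IFITM3 (chr11:320871-320910, - strand): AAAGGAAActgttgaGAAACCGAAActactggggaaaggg
ISG15 (chr1:1013375-1013414, + strand): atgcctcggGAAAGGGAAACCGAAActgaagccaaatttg
ISG20 (chr15:88638932-88638971, + strand): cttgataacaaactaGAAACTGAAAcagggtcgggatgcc
IFI44 (chr1:78649756-78649788, + strand): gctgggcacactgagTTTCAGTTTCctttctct
IFI44L (chr1:78620360-78620399, + strand): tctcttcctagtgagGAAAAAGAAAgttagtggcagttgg
GAS cores (TTCNNNGAA, the same on either strand) were found in 3 of the 9 promoters, those of IFI27, BST2 and IFITM1, against 7.66% of all promoters. The GAS core of IFI27 and 1 of 2 in BST2 overlapped ISRE cores, and that of IFITM1 overlapped a further ISRE core that crosses the start and is not shown. The ISRE core was held by 0 of 6 paralogs with a promoter entry, a list chosen as insensitive to interferon. It was held by 1 of 4 genes listed for ISG15 conjugation (HERC5), 1 of 8 signalling factors (SOCS1) and 0 of 5 receptors. UBE2L6, HERC6, TRIM25, STAT2 and IRF9, whose CPM was also lower in the bottom library, had no match in this window. A match describes letters in a window and does not show binding.

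Cells were kept with a minimum of 500 genes and 1000 UMIs and a mitochondrial share up to 20%. This left 76641034 UMIs from 1951 stretched bottom cells, 210814252 UMIs from 20121 stretched top cells and 212503735 UMIs from 17206 not stretched top cells. A bottom cell was read more deeply, with a median of 40387 UMIs against 9384 and 10964 UMIs in the stretched and not stretched top libraries. Its median mitochondrial share was 4.09%, against 10.4% and 9.64%. Of 8 epithelial markers 7 reached 10 CPM in every library (CPM is the UMIs of a gene scaled to a fixed library total), and of 18 endothelial, fibroblast and leukocyte markers 0 did. The top libraries also held 424 (stretched) and 408 (not stretched) cells rich in APOA1, APOA2, APOC3, FABP1, TTR and AGR2, against 0 cells in the bottom library. The labels do not say what these cells are, and whether they are HCT116 was not tested. Kept cells shared 9 barcodes between the stretched bottom and stretched top libraries, 6 between the stretched bottom and not stretched top libraries, and 88 between the top libraries.

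Summed over the 10 genes, the level was 990 CPM in stretched bottom cells, 5070 CPM in stretched top cells and 6690 CPM in not stretched top cells. All 10 genes had their lowest CPM in the bottom library and their highest in the not stretched top library, as the plot of levels shows. Levels of different genes are UMIs of a 3′ assay, which tags the end of each transcript and is not divided by gene length. ISG15 was the most abundant of the 10 genes in the top libraries and IFITM3 in the bottom library, and IFI44L was the least abundant in all 3.

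**Figure D1:**
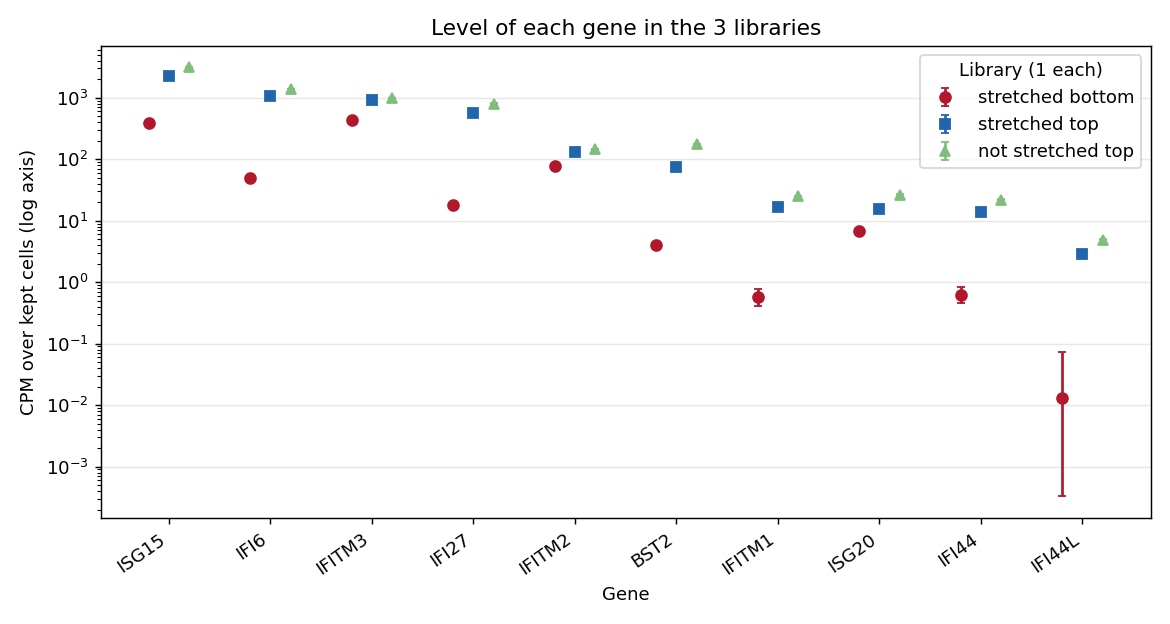
CPM of each of the 10 genes on a log axis in the stretched bottom, stretched top and not stretched top libraries (1 library each); bars are exact Poisson 95% intervals, which cover counting error only. The bottom library is lowest for every gene, by little for IFITM2 (77.4 against 130 and 146 CPM) and by far for IFI27 (18.0 against 562 and 805 CPM).

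ISG15 (ENSG00000187608, chromosome 1, 1001138 to 1014540, hg38) stood at 393 CPM in stretched bottom cells, 2260 CPM in stretched top cells and 3113 CPM in not stretched top cells. It was 5.75-fold lower in the bottom than in the stretched top library (95% interval 5.68 to 5.82). Despite that drop it held 39.7% of the UMIs of the 10 genes in the bottom library, against 44.6% and 46.5% in the stretched and not stretched top libraries. Between the top libraries it was 1.38-fold lower with stretch (1.37 to 1.38), short of 1.5-fold.

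Genes listed for attaching ISG15 to proteins or removing it were low in the bottom library as well. HERC5, the main ligase for ISG15 in human cells, stood at 9.25 CPM in stretched bottom cells, 40.3 CPM in stretched top cells and 45.6 CPM in not stretched top cells. UBE2L6, the conjugating enzyme, stood at 8.42, 34.4 and 44.7 CPM in that order, and USP18, the protease that removes ISG15 and dampens the receptor, at 3.86, 23.2 and 31.2 CPM. HERC6, whose part in human ISG15 conjugation is not assumed here, stood at 3.73, 19.9 and 28.1 CPM, and the ligase TRIM25 at 31.3, 58.8 and 65.7 CPM. UBA7, the activating enzyme, was under the minimum of 10 CPM at 0.0913, 0.389 and 0.527 CPM (7, 82 and 112 UMIs), so it was not called. The 5 listed genes over the minimum of 10 CPM, HERC6 among them, were all at least 1.5-fold lower in the bottom than in the stretched top library. Of all genes tested, 11.0% were. TRIM25 was over the minimum in both libraries, and the other 4 reached it through the top library alone, so they could be called in no other direction.

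IFI27 and IFI6, the pair of small hydrophobic proteins, had the largest drops among the abundant genes. IFI27 (ENSG00000165949, chromosome 14, 94104836 to 94116698) stood at 18.0 CPM in stretched bottom cells, 562 CPM in stretched top cells and 805 CPM in not stretched top cells. IFI6 (ENSG00000126709, chromosome 1, 27666061 to 27672218) stood at 50.4, 1066 and 1380 CPM in the same order. Their folds between stretched bottom and stretched top were 31.3-fold lower (29.7 to 33.0) for IFI27 and 21.2-fold lower (20.5 to 21.9) for IFI6. IFI27 ranked 4th and IFI6 7th from the lowest log2 ratio among 8870 genes in that comparison. Their share of the UMIs of the 10 genes was 1.81% and 5.09% in the bottom library, against 11.1% and 21.0% in the stretched top library.

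BST2 (ENSG00000130303, chromosome 19, 17402939 to 17405648) stood at 4.06 CPM in stretched bottom cells, 75.3 CPM in stretched top cells and 174 CPM in not stretched top cells. It was the gene of the 10 with the largest ratio between the top libraries, 2.31-fold lower with stretch (2.27 to 2.36). It ranked 2nd from the lowest of 9119 genes there. Against the not stretched top library the bottom library was 42.9-fold lower (38.4 to 48.2).

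The IFITM genes, neighbours on chromosome 11, did not move alike. IFITM1 (ENSG00000185885, 313506 to 315272) stood at 0.574 CPM in stretched bottom cells, 16.7 CPM in stretched top cells and 24.9 CPM in not stretched top cells. That is 29.0-fold lower in the bottom than in the stretched top library (21.6 to 40.0), from 44 UMIs. IFITM2 (ENSG00000185201, 307631 to 315272) stood at 77.4, 130 and 146 CPM in the same order, and was 1.68-fold lower in the bottom than in the stretched top library (1.64 to 1.73). IFITM3 (ENSG00000142089, 319669 to 327537) stood at 439, 928 and 993 CPM, and was 2.11-fold lower (2.09 to 2.14). IFITM3 made up 44.4% of the UMIs of the 10 genes in the bottom library, against 18.3% and 14.8% in the stretched and not stretched top libraries.

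These genes have near-identical ends, which makes their counts uncertain. Of the stretches of 50 bases in up to 500 last bases of the transcript, 94.3% of those of IFITM2, 68.5% of those of IFITM1 and 25.9% of those of IFITM3 were also found in transcripts of other genes, among them each other and pseudogenes. IFITM1 and IFITM2 also share 35.1% of their last 1000 exonic bases in the annotation. The other 7 genes shared 0% by either measure. How the counting treated such reads is not given in the sources used here.

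ISG20 (ENSG00000172183, chromosome 15, 88636153 to 88656483) stood at 6.76 CPM in stretched bottom cells, 15.8 CPM in stretched top cells and 26.2 CPM in not stretched top cells, and was 2.34-fold lower in the bottom than in the stretched top library (2.13 to 2.57). IFI44 (ENSG00000137965, chromosome 1, 78649796 to 78664078) stood at 0.626, 13.7 and 22.0 CPM in the same order and was 21.9-fold lower (16.5 to 29.8), from 48 UMIs. IFI44L (ENSG00000137959, chromosome 1, 78619922 to 78646145) had 1 UMI in the bottom library, against 2.83 CPM (596 UMIs) with stretch and 4.77 CPM (1014 UMIs) without stretch in the top channel. Its ratio of 217 has a counting interval of 38.7 to 8572. ISG20 and IFITM1 had overlapping intervals in both top libraries, and IFI44 and IFITM1 in the bottom library, so their order there is not set beyond counting error.

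In stretched bottom against stretched top, 9 of the 10 genes reached the minimum of 10 CPM in either library, and all 9 were at least 1.5-fold lower on the log2 scale with 1 CPM added, against 11.0% lower and 7.93% higher of 8870 genes tested. BST2, IFITM1, ISG20 and IFI44 reached the minimum through the top library alone and could therefore be called in no other direction. ISG15, IFI6, IFI27, IFITM2 and IFITM3 were over it in both libraries. The log2 ratios of the 9 genes ranged from −4.89 (IFI27) to −0.74 (IFITM2), with a median of −3.18 against 0.00 for all genes tested. That median is the ratio of IFI44, from 48 UMIs in the bottom library. The genes over the minimum in both libraries stood at −4.89 (IFI27), −4.38 (IFI6), −2.52 (ISG15), −1.08 (IFITM3) and −0.74 (IFITM2). Against the not stretched top library, 9 of 9 were lower, against 20.7% lower and 6.80% higher of 9218 genes, with a median of −3.82 against −0.18. BST2, IFITM1, ISG20 and IFI44 again reached the minimum through the top library alone, and the median was again the ratio of IFI44. The comparisons share libraries and are not independent of each other.

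In stretched top against not stretched top, 3 of 9 genes passed 1.5-fold downward with stretch and 0 upward, against 0.592% lower and 0.175% higher of 9119 genes. These were BST2, ISG20 (1.66-fold lower, 1.59 to 1.73) and IFI44 (1.60-fold lower, 1.53 to 1.68). The 9 genes had a median log2 ratio of −0.52, against −0.16 for all genes tested. IFITM1 (−0.55) and IFI27 (−0.52) lay just short of the threshold, and IFI44L, under the minimum, stood at −0.59. IFITM2 (−0.17) and IFITM3 (−0.10) lay near the median of all genes, and turned to 0.01 and 0.08 under TMM scaling and to 0.02 and 0.09 under median of ratios scaling. Under these scalings BST2 alone stayed past 1.5-fold, at −1.03 and −1.01.

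**Figure D2:**
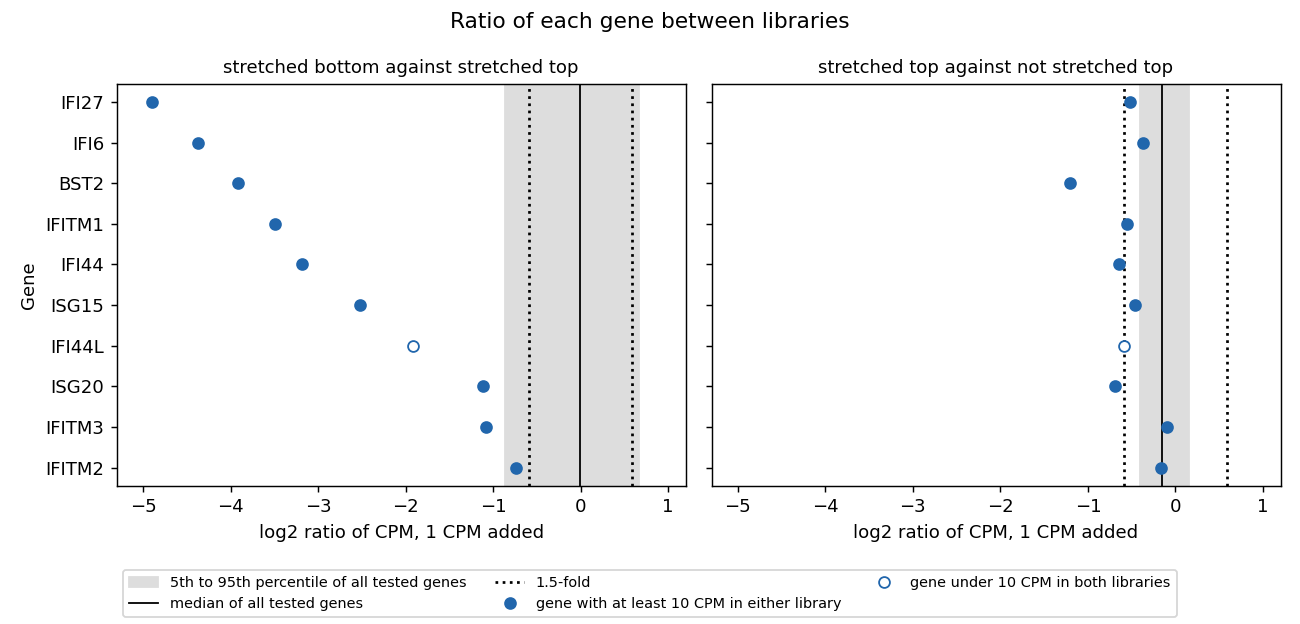
Log2 ratio of CPM (1 CPM added) of each of the 10 genes in stretched bottom against stretched top and in stretched top against not stretched top; the grey band spans the 5th to 95th percentile of all tested genes, the solid line is their median, dotted lines mark 1.5-fold and the open point is IFI44L, under 10 CPM. In the bottom comparison IFITM2 (−0.74) lies inside the grey band (−0.86 to 0.67) and the other genes left of it, and in the stretch comparison BST2 (−1.20) stands apart.

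The lower level of the bottom library was found in most of its cells. With every cell thinned to 3000 UMIs (1709, 18916 and 15699 cells left in the stretched bottom, stretched top and not stretched top libraries), the median cell held 2 UMIs of the 10 genes in the bottom library, 14 in a stretched top and 19 in a not stretched top cell. The middle 80% of cells held 0 to 6, 4 to 30 and 6 to 37 UMIs in that order. None of the 10 genes was seen in 12.9% of bottom cells (11.4 to 14.6), against 0.904% (0.774 to 1.05) of stretched top and 0.764% (0.634 to 0.913) of not stretched top cells. Few cells crossed over: 1.58% of bottom cells (1.04 to 2.29) reached the median of the stretched top library, and 5.28% of stretched top and 2.94% of not stretched top cells were at or below the bottom median.

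**Figure D3:**
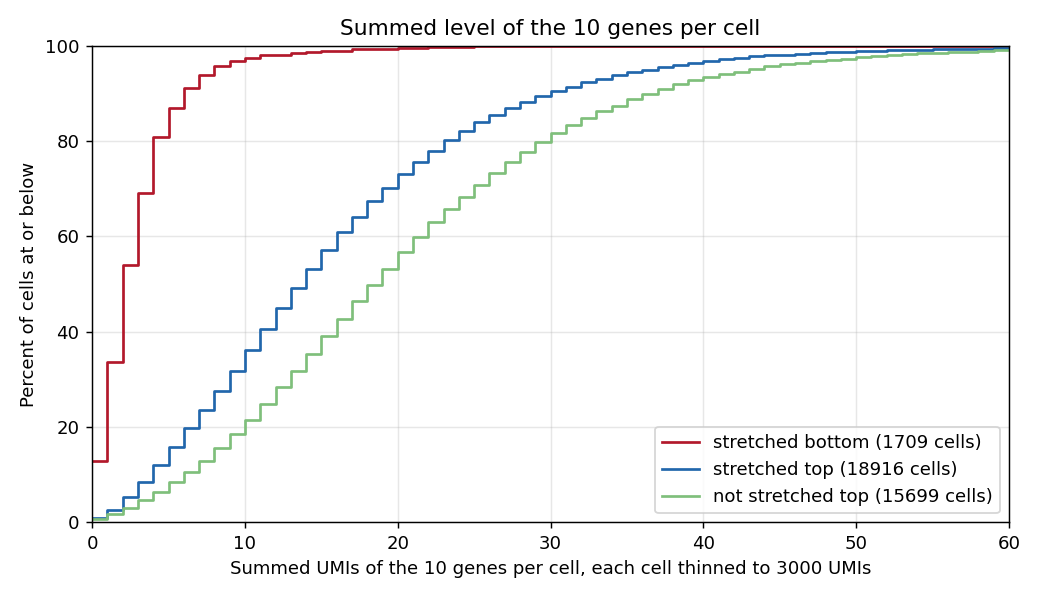
Cumulative percent of cells by the summed UMIs of the 10 genes in each cell, after thinning every cell to 3000 UMIs, for the stretched bottom, stretched top and not stretched top libraries. The medians are 2, 14 and 19 UMIs, and the bottom curve is near its end where the top curves are still rising.

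The share of cells with a UMI followed the levels. At 3000 UMIs per cell, ISG15 was seen in 54.8% of stretched bottom, 94.7% of stretched top and 97.2% of not stretched top cells. IFITM3 was seen in 65.2%, 87.9% and 89.2%, IFI6 in 12.3%, 83.5% and 89.6%, and IFI27 in 3.45%, 52.2% and 65.5% of cells in the same order. BST2 was seen in 0.644% (0.322 to 1.15), 16.2% (15.7 to 16.8) and 30.7% (30.0 to 31.5) of cells. Without thinning, IFI27 was seen in 18.1%, 68.4% and 80.3% and BST2 in 8.61%, 30.5% and 50.2% of cells. IFITM1, ISG20, IFI44 and IFI44L were each seen in at most 7.48% of thinned cells of any library. IFI44L had 0 UMIs in the 1709 thinned bottom cells.

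No cell type in these libraries should lack interferon-induced genes, so free RNA could only be gauged with other transcripts. APOA1 was seen in 92.6% of the cells rich in APOA1 and its companion genes in the stretched top library and in 1.94% of the other cells there, against 94.5% and 2.34% in the not stretched top library. The bottom library held 0 of these cells and had APOA1 in 2 of 1709 thinned cells, so it was not gauged. The part of free RNA in the shares given here was not tested.

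**Figure D4:**
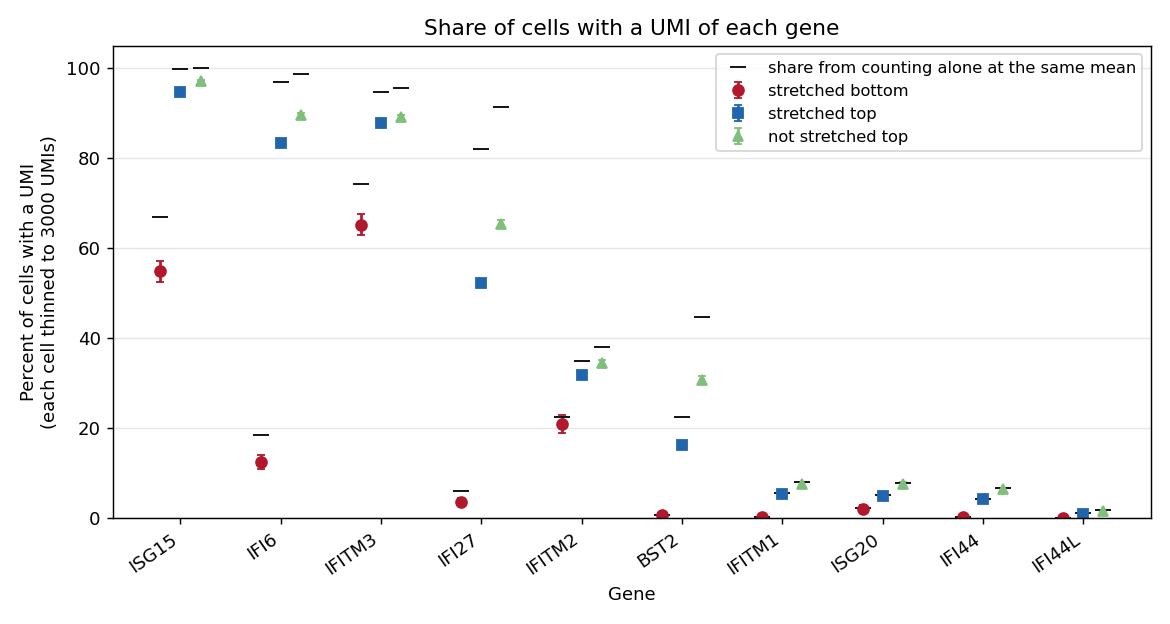
Percent of cells with at least 1 UMI of each of the 10 genes after thinning to 3000 UMIs, in the stretched bottom, stretched top and not stretched top libraries, with exact binomial 95% intervals; black dashes give the share that counting alone would leave if all cells of the library had the same mean. IFI27 lies furthest under its dash in the top libraries, at 52.2% against 82.1% with stretch.

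The genes differed in how evenly cells carried them. The ratio of variance to mean at 3000 UMIs, which is 1 for cells that differ by counting alone, was highest for ISG15 in the top libraries, at 5.17 with stretch and 5.21 without. IFI27 came next at 4.16 and 3.94, then IFI6 at 3.09 and 2.89, BST2 at 1.97 and 2.34 and IFITM3 at 1.86 and 1.85. This ratio grows with the mean, so a spread with counting noise taken off was computed as well. On that measure (a coefficient of variation), IFITM3 was the most even abundant gene, at 0.539 in the stretched and 0.519 in the not stretched top library. ISG15 and IFI6 stood near each other, at 0.782 and 0.775 in the stretched top library, IFI27 at 1.36 and BST2 at 1.95.

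In the bottom library the remaining IFI6 and IFI27 were concentrated in few cells. Their ratios of variance to mean there were 3.23 and 3.37, although the means were 0.202 and 0.0603 UMIs. The 5% of bottom cells with most IFI6 carried 63.6% of its UMIs, against 34.2% from counting alone. BST2, whose mean was 0.00644, had a ratio of 0.994, and ISG20 one of 1.04, so no spread beyond counting was detectable for them at this depth. IFITM3 and ISG15 were more evenly held, with 20.9% and 29.1% of UMIs in the top 5% of bottom cells, against 15.8% and 16.5% from counting alone.

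These cells of the bottom library were looked at after their values were seen. The 27 cells at or above the stretched top median of 14 UMIs, 1.58% of thinned bottom cells, held 26.9% of the thinned IFI6 UMIs and 41.7% of those of IFI27, against 12.0% for ISG15 and 5.62% for IFITM3. The cells were chosen by the sum of these same UMIs, so high shares follow in part from the choice. As a description of how they were chosen, they stood at 2935 CPM ISG15, 789 CPM IFI6 and 399 CPM IFI27, against 353, 38.7 and 12.0 CPM in the other 1682 bottom cells. Their median depth was 41387 UMIs, against 44405 UMIs in the other bottom cells, and their median mitochondrial share 4.72% against 4.14%. Among genes that did not choose them, the antiviral gene IFIT1 stood at 37.6 CPM in these cells and 4.10 CPM in the other bottom cells, against 92.8 CPM in the stretched top library. The class I light chain B2M stood at 1382 and 692 CPM, against 1324 CPM there, and the keratin KRT18 at 3176 and 1439 CPM, against 1294 CPM. The proliferation gene MKI67 stood at 82.9 and 124 CPM, against 107 CPM, and 22.2% and 51.8% of cells were in G2/M, against 32.0%. SAT1, a polyamine acetyltransferase, stood at 225 CPM in these cells and 203 CPM in the other bottom cells, against 1260 CPM in the stretched top library. MT-CYB stood at 3580 and 2856 CPM in these and in the other bottom cells, against 10386 CPM in the stretched top library. These cells thus lay nearer to the other bottom cells for SAT1, MT-CYB and depth, and between both groups for IFIT1. They lay above both for KRT18 and, by little against the stretched top library, for B2M. For MKI67 and the G2/M share their values were under both, but that share comes from 27 cells and no interval was computed for it. Whether any of them are doublets was not tested.

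Within the top libraries the abundant genes varied together from cell to cell. Over 18916 stretched top cells the highest Pearson correlations of log counts at 3000 UMIs were those of IFI6 with ISG15 (0.50), IFI6 with IFI27 (0.49) and IFI27 with ISG15 (0.40). Over 15699 not stretched top cells the same pairs stood at 0.47, 0.47 and 0.38. Of 45 pairs, 8 in the stretched and 10 in the not stretched top library were above 0.2, and 0 were negative. The cells of a library share its depth and its cell cycle mix, and the low values of rare genes such as IFI44L are set by sparse counts. In the bottom library 1 of 36 pairs was above 0.2, IFI6 with IFI27 at 0.37.

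Taking the summed UMIs of the 10 genes per cell, the most similar of 8645 other genes in the stretched top library was B2M, with a correlation of 0.45 (0.49 in the not stretched top library and 0.14 in the stretched bottom library). IFIT1 (0.29), the class I heavy chain gene HLA-B (0.27), the secreted glycoprotein gene LGALS3BP (0.27), S100A4 (0.25), MT-CYB (0.25), HLA-C (0.25), MT-CO2 (0.24), SAT1 (0.24) and the helix-loop-helix inhibitor gene ID3 (0.23) followed. The median over all these genes was −0.01. The levels of B2M were 701 CPM in stretched bottom cells, 1321 CPM in stretched top cells and 1528 CPM in not stretched top cells. ID3 stood higher in the stretched bottom (509 CPM) than in the stretched top library (383 CPM), while not stretched top cells had 595 CPM.

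The difference between channels held within bins of cell depth. Among cells of 20000 to 40000 UMIs, the 10 genes summed to 1062 CPM in 400 stretched bottom cells, 4447 CPM in 1462 stretched top cells and 6304 CPM in 2389 not stretched top cells. Among cells of 1000 to 5000 UMIs, the sums were 944, 5642 and 6712 CPM. In the stretched top library the sum was lower in deeper cells, with the genes unequal in this: BST2 stood at 109 CPM in cells of 1000 to 5000 UMIs and 58.2 CPM in those of 20000 to 40000 UMIs, while ISG15 stood at 2280 and 2079 CPM. The deepest bin of that library holds 12 cells and is shown but not compared. IFITM2 alone fell short of 1.5-fold with depth matched: over cells of 20000 to 60000 UMIs its log2 ratio in stretched bottom against stretched top was −0.31.

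Bins of mitochondrial share gave the same order. Among cells with under 5% mitochondrial UMIs the 10 genes summed to 974 CPM in stretched bottom cells, 3653 CPM in stretched top cells and 5467 CPM in not stretched top cells. Among cells with 10% to 20% the sums were 1020, 5553 and 6880 CPM. In the stretched top library, BST2 stood at 21.5 CPM in the first of these bins and 104 CPM in the other, and without stretch at 51.0 and 248 CPM, so it differed with this share by more than between these libraries. Within each bin BST2 was lower with stretch. ISG15 stood at 1903 and 2321 CPM in these bins of the stretched top library, and at 3059 and 2879 CPM without stretch.

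Cell cycle phase separated the genes as well. In G1, S and G2/M cells of the stretched top library, IFI27 stood at 671, 456 and 494 CPM, BST2 at 100, 59.4 and 55.5 CPM and IFITM2 at 163, 114 and 101 CPM. ISG15 was not highest in G1 there, at 2252, 1949 and 2400 CPM, nor without stretch, at 2987, 2831 and 3327 CPM. In the stretched bottom library ISG15 stood at 557, 386 and 315 CPM and was highest in G1. G2/M cells made up 51.3% of stretched bottom, 32.0% of stretched top and 34.7% of not stretched top cells at 3000 UMIs. Within G1 alone, the 10 genes summed to 1327 CPM in stretched bottom cells, 5536 CPM in stretched top cells and 7246 CPM in not stretched top cells. Phases were called from the same UMIs, and the part of free RNA in them was not tested.

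**Figure D5:**
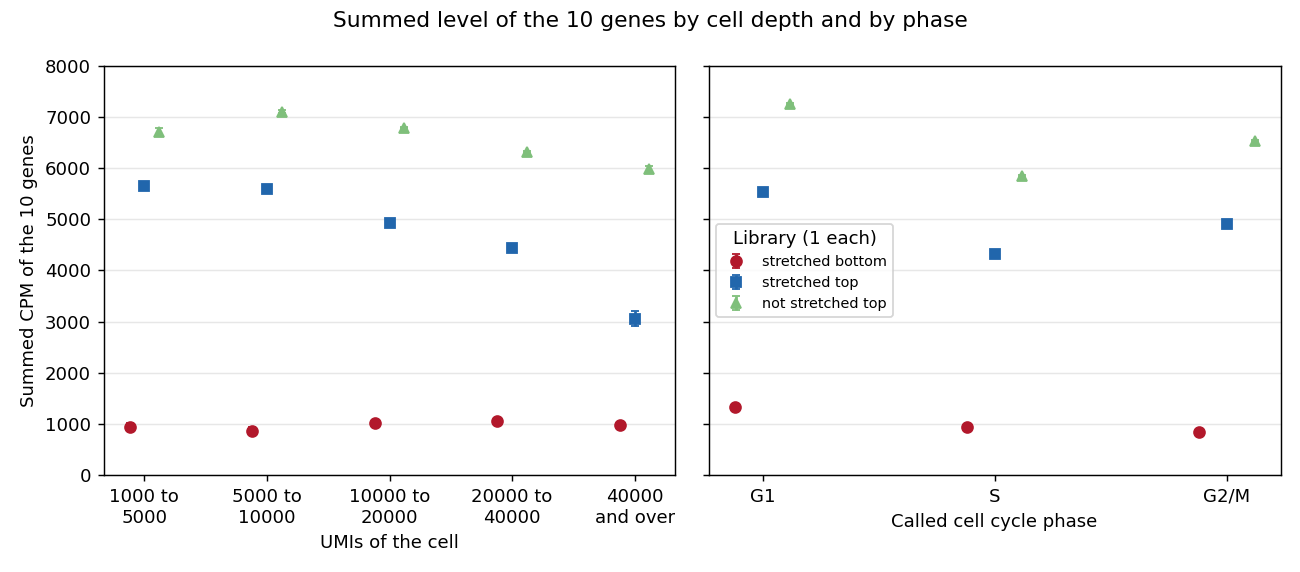
Summed CPM of the 10 genes by the UMIs of the cell (left) and by called phase (right) in the stretched bottom, stretched top and not stretched top libraries, with exact Poisson 95% intervals that cover counting error only. The bottom library lies between 843 and 1327 CPM in every bin, under the lowest bin of either top library (3051 CPM, from 12 cells).

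The cells rich in APOA1 and its companion genes carried less of most of the 10 genes. In the stretched top library the sum was 2139 CPM in these 424 cells and 5153 CPM in the other 19697, and without stretch 2031 CPM in 408 cells and 6834 CPM in the other 16798. ISG15 stood at 912 CPM in these cells and 2298 CPM in the others with stretch, and IFITM3 at 322 and 945 CPM. BST2 was higher in these cells with stretch, at 154 CPM in these cells and 73.0 CPM in the others, while without stretch it stood at 156 and 175 CPM. The lower BST2 level of the stretched top library was therefore present in the other cells (73.0 with stretch, 175 CPM without) and not in the cells rich in APOA1 (154 with stretch, 156 CPM without).

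The genes of the signal chain in front differed unevenly. STAT2 stood at 10.8 CPM in stretched bottom cells, 25.8 CPM in stretched top cells and 34.2 CPM in not stretched top cells. IRF9 stood at 1.33, 9.50 and 12.9 CPM in the same order. Both genes are interferon-induced themselves, as is IRF7, at 10.9, 49.6 and 65.8 CPM. The kinases JAK1 (45.0, 53.9 and 57.8 CPM) and TYK2 (11.3, 11.2 and 14.1 CPM) and the factor IRF3 (41.1, 36.2 and 36.5 CPM) stood closer together. In the list of receptors 3 genes were tested in stretched bottom against stretched top. At least 1.5-fold lower were 0 and higher 1, against 11.0% and 7.93% of all genes tested, and 3 genes are too few to set apart from these shares. The higher one was the type II receptor subunit IFNGR2 (54.3, 35.6 and 34.5 CPM), just past the threshold at a log2 ratio of 0.60. The type I receptor subunit IFNAR1 stood at 28.5, 19.7 and 22.1 CPM, and the type III receptor subunit IFNLR1, under the minimum in that comparison, at 7.31, 9.62 and 11.9 CPM.

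The next list holds sensors of foreign nucleic acid and their signalling partners. Of its 5 tested genes, 4 were at least 1.5-fold lower in stretched bottom against stretched top, against 11.0% of all genes tested. Among them were the RNA sensors DDX58 (13.1 against 62.2 CPM) and IFIH1 (3.82 against 25.6 CPM). The other sensors of that list were under the minimum and not tested. DDX58 and MAVS were over the minimum of 10 CPM in both libraries, and IFIH1 and TMEM173 through the top library alone. Of the IFIT, OAS and MX effectors, 6 of 7 tested genes were lower, of which EIF2AK2 (65.0 against 163 CPM) alone was over the minimum in both libraries. IFIT1, IFIT3, OAS1, OAS3 and OASL reached it through the top library alone and could be called in no other direction. IFIT1 stood at 4.59 CPM in stretched bottom cells, 92.9 CPM in stretched top cells and 143 CPM in not stretched top cells, and the double-stranded RNA sensor OAS1 at 0.339, 18.1 and 25.2 CPM. None of these counts of lists was tested against other genes.

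Interferon ligand genes were all under the minimum of 10 CPM, and most of the ligand UMIs in the top libraries were of type III genes. IFNE, a type I gene of epithelia, had 23 UMIs in stretched bottom cells, 99 in stretched top cells and 98 in not stretched top cells. IFNL1, IFNL2 and IFNL3 had 0 UMIs each in the stretched bottom library, against 149, 45 and 90 UMIs among stretched top cells and 158, 38 and 67 UMIs among not stretched top cells. IFNB1 had 0, 5 and 19 UMIs, and IFNA1, IFNA2, IFNK and IFNG had 0 in all 3 libraries. IFNL2 and IFNL3 are near-identical, so the split between them is uncertain. Looked at after the values were seen, these 4 genes (IFNB1 and IFNL1 to IFNL3) had UMIs in 0 of 1951 bottom cells, which allows a share of up to 0.154% (3 counts). The exact binomial 95% interval of that share, as used for the top libraries, reached 0.189% and overlapped both of theirs. The 4 genes had UMIs in 45 stretched top cells (0.224%, 0.163 to 0.299) and 37 not stretched top cells (0.215%, 0.151 to 0.296). In each top library 10 cells carried most of them, 233 of 289 UMIs with stretch and 241 of 282 without. The cells with a ligand UMI held a median of 31 UMIs of the 10 genes at 3000 UMIs, against 14 in the others of the stretched top library, and 34 against 19 in the not stretched top library. Their median depth was also higher, at 11654 against 9379 UMIs with stretch and 16708 against 10956 UMIs without, and the part of depth in finding them was not tested.

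Most tested relatives and nearest measured neighbours of the 10 genes did not share their lower level in the bottom library, like most genes tested. The relatives (paralogs) were listed as insensitive to interferon, so their levels are a description and no check. IFI27L1 and IFI27L2, which flank IFI27, stood at 41.9 and 89.3 CPM among stretched bottom cells, 34.8 and 88.6 CPM among stretched top cells and 36.7 and 83.3 CPM among not stretched top cells. Of 5 tested paralogs 0 were lower in stretched bottom against stretched top and 1 was higher, the exonuclease relative REXO4 (27.9 against 15.7 CPM). Over all genes tested, 11.0% were lower and 7.93% higher. The tested paralogs are relatives of IFI27 and ISG20, and those of the IFITM genes were under the minimum. AEN, a p53-induced nuclease related to ISG20 and its nearest measured neighbour, stood at 14.6 against 11.5 CPM. MVB12A, which starts 74 bases from BST2 in the annotation, stood at 99.1 against 84.0 CPM. Of 14 nearest neighbours with at least 10 CPM, 1 was at least 1.5-fold lower and 1 higher, with a median log2 ratio of 0.03. These counts lay near the shares of 11.0% and 7.93% over all genes, so they show nothing particular to neighbours. The distances reached 5218883 bases (from IFI44L), so not all of them lie close. The lower gene was HES4, a helix-loop-helix repressor gene 966 bases from ISG15, at 188 against 399 CPM, and the higher one DNAJB4, a chaperone gene 601958 bases from IFI44L, at 33.5 against 11.3 CPM.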

How the data were processed

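Raw counts of UMIs for every gene and barcode, from droplet 3′ libraries, were taken as deposited. They were made with Cell Ranger 7.0.0 per the file headers and on build hg38 per the submitters' processing notes. The sources used here name no annotation version. Groups were taken from the sample titles. Counts of kept cells were summed per library and divided by the library total (CPM). Ratios used log2 of CPM with 1 CPM added, a minimum of 10 CPM in 1 of the libraries compared and a 1.5-fold threshold. Folds are CPM ratios. Their 95% intervals are exact conditional binomial, those of CPM are Poisson and those of shares Clopper-Pearson. A count of 0 allows 3 counts. Intervals cover counting error only. Cells were thinned without replacement; phases were called with scanpy 1.11.5 on thinned cells. No doublets were removed, and the 5% deepest cells were left out as an alternative. Steps were tested on simulated data. Gene coordinates are from GENCODE release 29 and promoters from RefSeq.

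The 10 genes and the lists were chosen with earlier results of these data known. All 10 genes are named. Other lists name up to 4 genes by largest ratio in stretched bottom against stretched top, with STAT2, IRF9 and the genes listed for ISG15 conjugation always. The count over the list of signalling factors and 1 of its genes are not reported here. JAK1, TYK2, IRF3, SOCS1, MAVS, TMEM173, OAS3, OASL, EIF2AK2, KRT18, MKI67, IFI27L2, MVB12A and the ligands other than IFNE and IFNL1 to IFNL3 were named after their values were seen. The genes most like the 10 are the first 10 by correlation over stretched top cells. TMM factors were computed with edgeR 4.0.16 (R 4.3.3) and all else with Python 3.11.15, numpy 2.4.6, scipy 1.17.1, pandas 2.3.3 and matplotlib 3.10.9.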

Additional observations from a re-analysis of the deposited data

How the results depend on the processing

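Each setting was changed on its own. Between stretched top and not stretched top, the count of 3 genes at least 1.5-fold lower was 5 under the stricter cell filter (2000 genes, 5000 UMIs, 10% mitochondrial) and over cells of 20000 to 60000 UMIs, and 1 under TMM scaling, median of ratios scaling, 5 CPM added, a minimum of 50 CPM and a 2-fold threshold, each time BST2. The cause was not tested. The background moved too: TMM scaling gave 10 of all genes lower and 70 higher, and median of ratios scaling 10 and 76, against 54 and 16. Of all genes, 66 of 9046 were lower under the stricter cell filter and 77 of 9092 over cells of 20000 to 60000 UMIs. With 5 CPM added 18 of 9119 were lower, with a minimum of 50 CPM 14 of 3251, and with a 2-fold threshold 6 of 9119. In stretched bottom against stretched top, 8 to 10 genes were lower under the settings that keep the 10 CPM minimum or relax it, and 6 of 6 with a minimum of 50 CPM. Of all genes, 3.38% (2-fold threshold) to 17.3% (totals without mitochondrial and ribosomal protein genes) were lower under the former settings. With a minimum of 50 CPM, 230 of 3308 were lower. Genes that reached the minimum through the top library alone could again be called in no other direction. These were IFI27 and BST2 with a minimum of 50 CPM, and IFITM1, IFI44 and IFI44L with 1 CPM. IFITM2 was the gene lost where the count was 8, at −0.31 over cells of 20000 to 60000 UMIs. All genes gave 886 lower and 843 higher there under TMM scaling, 812 and 945 under median of ratios scaling and 1696 and 395 over totals without mitochondrial and ribosomal protein genes, against 977 and 703. In stretched bottom against not stretched top the splits were 1020 lower and 1355 higher under TMM scaling, 917 and 1556 under median of ratios scaling and 2785 and 476 over the reduced totals, against 1910 and 627. The median log2 ratio of all genes moved from −0.16 to 0.02 and 0.03 in stretched top against not stretched top under these scalings. No called ratio of the 10 genes turned sign under 16 alternatives in any of the 3 comparisons. Leaving out IFITM1 to IFITM3, an alternative chosen after seeing the data, left 3, 6 and 6 of 6 genes lower in the 3 comparisons. Of all genes tested, 0.592%, 11.0% and 20.7% were lower in stretched top against not stretched top, stretched bottom against stretched top and stretched bottom against not stretched top. No paired analysis was possible because each group has 1 library.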
